A study of Saccharomyces pastorianus with 18 samples.

Results

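The mevalonate branch of sterol synthesis was followed through 10 genes, ERG10, ERG13, HMG1, HMG2, ERG12, ERG8, MVD1, IDI1, ERG20 and ERG9, in 2 mutants of the lager yeast *Saccharomyces pastorianus*. This yeast is a hybrid in which the genomes of *S. cerevisiae* and *S. eubayanus* are joined, each called a sub-genome here. The genes were taken by name from the deposited count table, in which each has 1 row per sub-genome, so that they make up 20 of its 11979 rows, and 10 of its 7568 distinct gene names. Each gene was read both as the sum of its 2 rows and row by row. W34/70 9.7 and CBS1538 11.1 are resistant isolates of the lager strains W34/70 and CBS1538. The parents had been exposed to 20, 40 or 100 µg/mL of radicicol, a drug against the Hsp90 chaperone, and resistant colonies were then picked on the phenylalanine analogues B2TA at 75 µg/mL and PFPA at 200 µg/mL. Each mutant was represented by 3 libraries from minimal medium (0.5% ammonium sulfate, 1% dextrose and 1% maltose, 20 °C, exponential phase), 3 from day 4 and 3 from day 2 of fermentation in 10% wort with 1 mM ZnSO4 at 13 °C, unshaken and closed with a water-trap airlock. Each mutant is a single isolate, and libraries of an unmutated parent were not analysed here. For the 3 CBS1538 11.1 day 2 libraries, the sample titles and the column names give the mutant while the strain field reads parental. The 2 readings cannot be told apart, and this touches every comparison that uses those libraries. The comparison of minimal medium with day 4 in CBS1538 11.1 does not use them. Medium, temperature, aeration and growth phase all differ between minimal medium and wort, so their parts in a difference cannot be told apart.

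The mevalonate branch joins acetyl-CoA units into mevalonate, turns mevalonate into isoprenoid diphosphates and condenses these to squalene, from which ergosterol is made. Its controlled step is HMG-CoA reductase, which yeast encodes as the isozymes HMG1 and HMG2. In *S. cerevisiae*, HMG1 is known as the form that serves cells growing with air and HMG2 as the form favoured when oxygen is scarce, and the steps from squalene to ergosterol need molecular oxygen.

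ERG13, HMG1, ERG12 and ERG8 share chromosome XIII in both sub-genomes, where HMG1 spans 115734 to 118898 on the reverse strand of the *S. cerevisiae* sequence (YML075C, build R64) and 127423 to 130590 on the *S. eubayanus* sequence (DI49_4014, assembly not given in the sources used here). HMG2 lies on chromosome XII, at 1032627 to 1035764 (YLR450W) and at 996137 to 999253 (DI49_3943), on the forward strand in both. ERG10 and IDI1 are on chromosome XVI, MVD1 on XIV and ERG20 on X. The copies of ERG9 carry different chromosome names, VIII in *S. cerevisiae* and XV in *S. eubayanus*. The *S. eubayanus* row of ERG8 covers 809 bp against 1356 bp for the *S. cerevisiae* row, so counts of these copies are not on the same length, and the ERG13 rows cover 1386 and 1476 bp.

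Total counts ran from 5266324 to 19467656 per library, and the smallest count of any *S. eubayanus* row of the branch in CBS1538 11.1 was 158. Levels are CPM, read counts relative to a library of 1000000 counts, after TMM scaling, and levels of different genes are compared only as CPM per kb of row length. Changes are log2 fold changes from edgeR's quasi-likelihood test over all 6633 genes that passed a filter on low counts, with the copies summed. The standard errors given with them are approximate: the size of the log2 change divided by the square root of the test's F statistic. Calls were made where the Benjamini-Hochberg adjusted p was under 0.05. All 10 genes passed the filter, and so did all 20 rows when copies were kept apart. Nothing in the labels shows that the 3 libraries of a group came from separate cultures, beyond the word triplicate, so p-values measure the spread between these libraries. In bulk RNA, a lower level per cell and fewer cells expressing a gene cannot be told apart. A pair of W34/70 9.7 libraries stood apart: the 364 expressed genes of *S. eubayanus* chromosome VII, which holds no gene of the branch, had a median log2 difference from the other 2 replicates of -7.66 (replicate 1 of day 4) and -7.73 (replicate 2 of day 2), against -0.02 to 0.01 in the minimal medium libraries. Marker genes for sporulation (12 genes) summed to between 47.3 and 139 CPM per library and those for mating type and haploid cells (12 genes in the table) to between 35.9 and 152 CPM, with MFA1 and STE2 at 0 in CBS1538 11.1. In W34/70 9.7, 5 of the sporulation and 8 of the mating genes were lower in minimal medium than on day 4 (28.6% of all genes). Against day 2, 4 and 1 were lower and 2 and 0 higher (32.1% and 32.8% of all genes). On day 4 against day 2, 3 and 2 were higher (20.7%). In CBS1538 11.1, minimal medium had 2 and 2 lower and 3 and 0 higher than day 4 (23% and 25.2%). Against day 2 it had 1 and 1 lower and 3 and 0 higher (21.2% and 27.3%). On day 4 against day 2, 0 and 1 were higher there (17.2%). The part of these marker genes in the results was not tested.

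The branch took its largest share of the transcriptome in CBS1538 11.1 in minimal medium. The 10 genes together held 0.653%, 0.667% and 0.722% of all counts in minimal medium, 0.494%, 0.579% and 0.519% on day 4 and 0.329%, 0.479% and 0.272% on day 2 in W34/70 9.7. In CBS1538 11.1 they held 2.11%, 1.72% and 1.84% in minimal medium, 0.532%, 0.523% and 0.641% on day 4 and 0.326%, 0.381% and 0.324% on day 2. The minimal medium libraries were above the wort libraries in both strains without overlap, and those of CBS1538 11.1 were above those of W34/70 9.7. The summed level was 6265 ± 374 CPM in minimal medium, 4567 ± 330 on day 4 and 4186 ± 944 on day 2 in W34/70 9.7, and 19392 ± 2150, 5510 ± 443 and 3684 ± 323 CPM in the same order in CBS1538 11.1 (SD, n = 3 each).

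**Figure D1:**
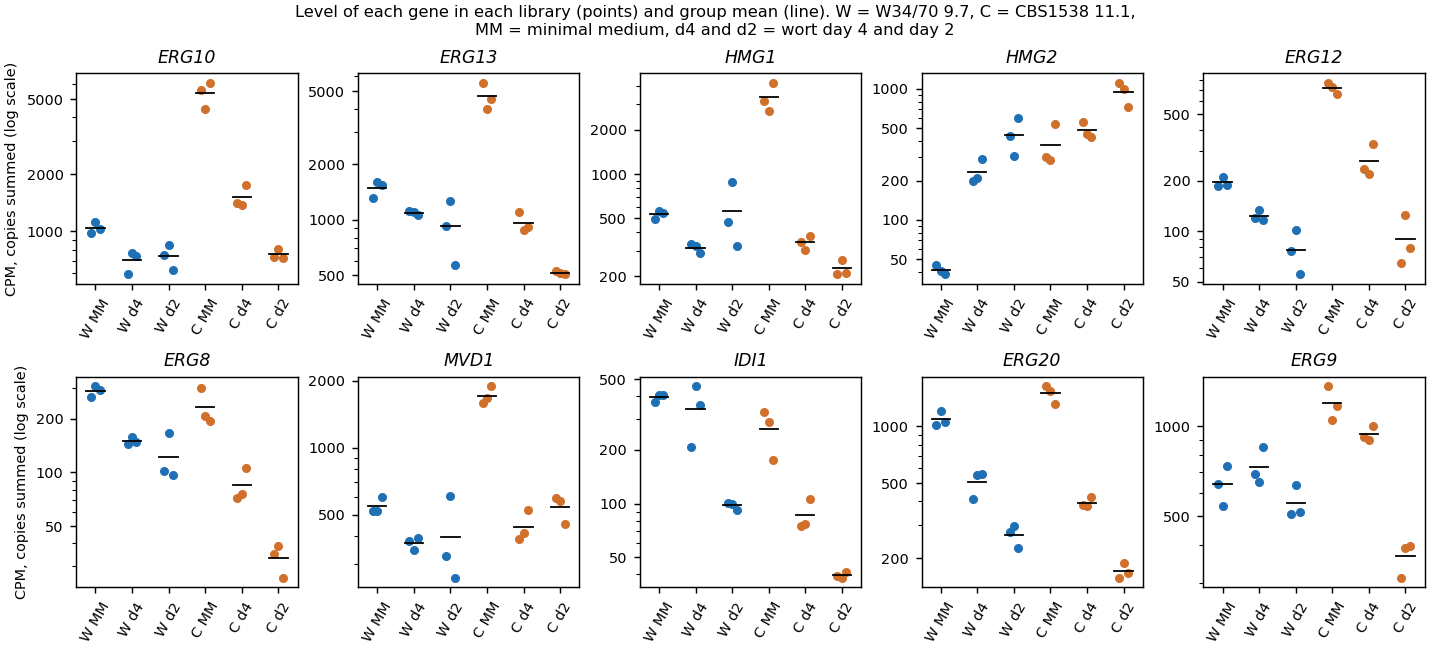
Level of each of the 10 genes in CPM with copies summed, on a log scale, in the 3 libraries (points) of each of the 6 groups, with the group mean as a line. For 7 of the 10 genes the CBS1538 11.1 minimal medium libraries lie highest of all groups, while HMG2 is lowest in W34/70 9.7 in minimal medium, at 38.5 to 45.1 CPM.

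Per kb, 1 of the early genes ERG10 and ERG13 was the highest of the branch in each of the 6 groups. In W34/70 9.7 in minimal medium, ERG13 stood at 1042 ± 111 and ERG20 at 1034 ± 96.2 CPM per kb, which overlapped, followed by ERG10 at 872 ± 60.3, and the lowest was HMG2 at 13.2 ± 1.08 CPM per kb. In CBS1538 11.1 in minimal medium ERG10 stood at 4488 ± 708 and ERG13 at 3386 ± 559 CPM per kb, which also overlapped, and HMG2 was again last at 121 ± 44.9. MVD1, ERG20 and HMG1 came next in that group at 1440 ± 130, 1411 ± 156 and 1054 ± 239 CPM per kb, each overlapping its neighbour. On day 2 the order in CBS1538 11.1 was different: HMG2 ranked 4 of 10 at 303 ± 63.9 CPM per kb, above HMG1 at 71.6 ± 9.38, and ERG8 was last at 40.9 ± 8.32 (SD, n = 3 each). ERG12 was the lowest in W34/70 9.7 on day 2, at 58.3 ± 17.2 CPM per kb.

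In minimal medium compared with day 2, 6 of the 10 genes were higher and HMG2 was lower in W34/70 9.7 (32.8% and 32.1% of all genes tested were called higher and lower), and 9 were higher and HMG2 was lower in CBS1538 11.1 (27.3% and 21.2% of all genes). The largest increase was that of HMG1 in CBS1538 11.1, at 14.7-fold. The median change of the 10 genes was 0.59 on the log2 scale in W34/70 9.7, beside -0.01 over all genes, and 2.82 in CBS1538 11.1, beside 0.00 over all genes. With scaling by library totals, which moves the median of all genes by 0.33 in W34/70 9.7, 63.1% in place of 50.5% of all called genes were higher in that strain. The 3 comparisons within a strain share their libraries in pairs.

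Against day 4 the same medium gave 5 genes called higher and 1 lower in W34/70 9.7 (26.1% and 28.6% of all genes) and 8 higher and 0 lower in CBS1538 11.1 (25.2% and 23% of all genes). The 5 in W34/70 9.7 became 2 to 4 when any 1 of the 6 libraries was left out, and 3 with scaling by library totals. The median change was 0.56 in W34/70 9.7 and 1.72 in CBS1538 11.1, beside -0.03 and 0.00 over all genes. The genes not called in CBS1538 11.1 were HMG2, at -0.36 ± 0.27 (adjusted p = 0.3), and ERG9, at 0.34 (adjusted p = 0.126). HMG2 was called lower there when minimal medium replicate 3 was left out (-0.71, adjusted p = 0.0391).

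Between the wort time points, day 4 had 3 genes higher and 2 lower than day 2 in W34/70 9.7 (20.7% and 17% of all genes), and 7 higher and 1 lower in CBS1538 11.1 (17.2% and 14.6% of all genes). IDI1, ERG20 and ERG12 were higher and HMG2 was lower in both strains. The median change was 0.28 in W34/70 9.7 and 1.06 in CBS1538 11.1, beside 0.07 and 0.00 over all genes. Without the 2 libraries that stood apart, W34/70 9.7 had 3 genes higher and 1 lower. Leaving out day 2 replicate 2 alone gave 5 higher and 1 lower, and leaving out day 2 replicate 3 alone gave 2 higher and 1 lower. The split of calls moved with the scaling: 54.9% of all called genes were higher in W34/70 9.7 with TMM and 85.8% with library totals, which move the median of all genes by 0.45 and leave 6 genes of the branch higher and 0 lower. The shares in CBS1538 11.1 were 54% and 66.4%.

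**Figure D2:**
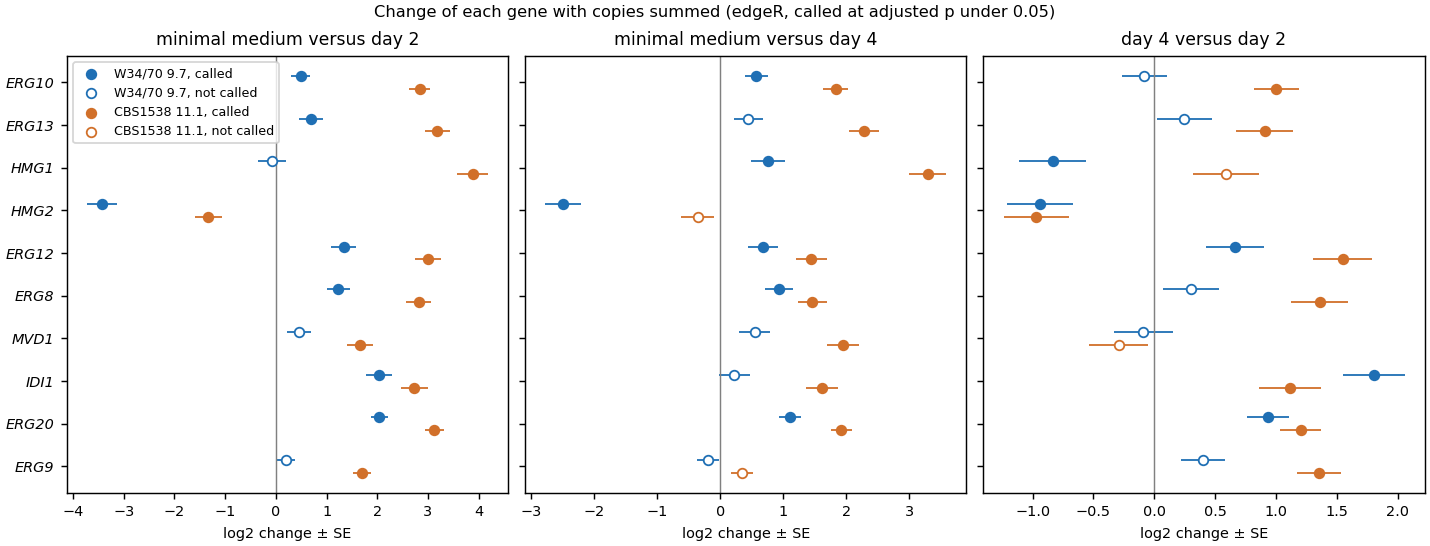
Log2 change of each gene with copies summed and its standard error in minimal medium against day 2, minimal medium against day 4 and day 4 against day 2, for W34/70 9.7 and CBS1538 11.1. Filled points passed an adjusted p under 0.05 in edgeR. In minimal medium against day 2 all CBS1538 11.1 points except HMG2, at -1.33, lie at 1.66 or above.

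ERG10, the acetoacetyl-CoA thiolase that opens the branch, had 982, 1123 and 1026 CPM in minimal medium, 592, 766 and 744 CPM on day 4 and 753, 850 and 625 CPM on day 2 in W34/70 9.7. In CBS1538 11.1 it had 5592, 4435 and 6087 CPM in minimal medium, 1408, 1376 and 1749 CPM on day 4 and 733, 809 and 719 CPM on day 2. The wort days overlapped in W34/70 9.7 with minimal medium above both, while the 3 conditions of CBS1538 11.1 separated without overlap. The change in minimal medium against day 2 was 0.49 ± 0.19 in W34/70 9.7 (adjusted p = 0.0282) and 2.83 ± 0.20 in CBS1538 11.1 (adjusted p = 1.81e-08). The W34/70 9.7 call was lost without any 1 of its 6 libraries except day 2 replicate 2, at 0.28 to 0.60 with adjusted p up to 0.25. On day 4 against day 2, ERG10 was at -0.08 ± 0.19 in W34/70 9.7 (adjusted p = 0.75) and rose in CBS1538 11.1 (1.00 ± 0.19, adjusted p = 0.00076).

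ERG13, HMG-CoA synthase, had 1307, 1598 and 1554 CPM in minimal medium, 1114, 1106 and 1058 CPM on day 4 and 923, 1266 and 572 CPM on day 2 in W34/70 9.7. In CBS1538 11.1 the values were 5528, 3999 and 4553 CPM in minimal medium, 1100, 882 and 916 CPM on day 4 and 528, 513 and 507 CPM on day 2. Minimal medium exceeded day 2 without overlap in both strains, by 0.69 ± 0.23 on the log2 scale in W34/70 9.7 (adjusted p = 0.0143) and by 9.1-fold in CBS1538 11.1 (log2 3.19 ± 0.25, adjusted p = 5.09e-08). Day 2 of W34/70 9.7 varied most, and the call there was lost without minimal medium replicate 2 or 3 or day 2 replicate 1 or 3, the change ranging from 0.34 to 0.99 and the adjusted p up to 0.159. ERG13 also rose on day 4 against day 2 in CBS1538 11.1, by 0.91 ± 0.23 (adjusted p = 0.00671).

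The reductase isozymes moved apart in minimal medium. HMG1 had 496, 557 and 539 CPM in minimal medium, 331, 324 and 287 CPM on day 4 and 473, 885 and 322 CPM on day 2 in W34/70 9.7, against 3139, 2701 and 4177 CPM, 342, 303 and 377 CPM, and 207, 261 and 212 CPM in CBS1538 11.1. HMG1 in CBS1538 11.1 thus lay far above every other group in minimal medium, and in W34/70 9.7 the minimal medium libraries fell inside the range of day 2. The change against day 2 was -0.08 ± 0.27 in W34/70 9.7 (adjusted p = 0.818) and 3.88 ± 0.30 in CBS1538 11.1 (adjusted p = 5.24e-08). Against day 4, HMG1 rose by 0.76 ± 0.27 on the log2 scale in W34/70 9.7 (adjusted p = 0.026) and 9.8-fold in CBS1538 11.1 (log2 3.29 ± 0.30, adjusted p = 2.21e-07). The W34/70 9.7 call was lost when any of its 6 libraries was left out, at 0.65 to 0.76. Day 4 against day 2 gave a fall of HMG1 in W34/70 9.7, at -0.84 ± 0.27 (adjusted p = 0.0235), and 0.59 ± 0.27 in CBS1538 11.1 (adjusted p = 0.111). Without day 2 replicate 2, the highest HMG1 library of that strain, the W34/70 9.7 value was -0.34 (adjusted p = 0.217). Nor was HMG1 called lower there with scaling by library totals. In CBS1538 11.1 a fit of the 2 wort days alone with replicate numbers as pairs called HMG1 higher on day 4 (0.54, adjusted p = 0.0163).

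HMG2 had 45.1, 40.6 and 38.5 CPM in minimal medium, 197, 209 and 294 CPM on day 4 and 439, 307 and 595 CPM on day 2 in W34/70 9.7. In CBS1538 11.1 it had 302, 288 and 537 CPM in minimal medium, 559, 456 and 433 CPM on day 4 and 1108, 1004 and 723 CPM on day 2. The 3 conditions of W34/70 9.7 did not overlap, and in CBS1538 11.1 day 2 lay above the other conditions, which overlapped. HMG2 was the gene of the branch called lower in minimal medium than on day 2 in both strains, to 0.0927 of the day 2 level in W34/70 9.7 (log2 -3.43 ± 0.30, adjusted p = 5.51e-08) and to 0.398 in CBS1538 11.1 (-1.33 ± 0.27, adjusted p = 0.00061). HMG2 also fell on day 4 against day 2, at -0.94 ± 0.27 in W34/70 9.7 and -0.97 ± 0.27 in CBS1538 11.1 (adjusted p = 0.0121 and 0.0117), and the difference between the strains was 0.03 ± 0.38. The W34/70 9.7 value was not called without day 2 replicate 3 (-0.75, adjusted p = 0.0531). Nor was HMG2 called lower in that strain with scaling by library totals.

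The HMG1 to HMG2 ratio, per kb of row length, was 10.9, 13.6 and 13.8 in the minimal medium libraries of W34/70 9.7, 1.66, 1.53 and 0.966 on day 4 and 1.06, 2.84 and 0.535 on day 2. In CBS1538 11.1 it was 10.2, 9.21 and 7.65 in minimal medium, 0.602, 0.654 and 0.856 on day 4 and 0.184, 0.256 and 0.289 on day 2. Both strains thus had more HMG1 than HMG2 RNA in minimal medium, by a fall of HMG2 with HMG1 at -0.08 against day 2 in W34/70 9.7 and by a rise of HMG1 together with a smaller fall of HMG2 in CBS1538 11.1. On both wort days all CBS1538 11.1 libraries had more HMG2 than HMG1. Low-oxygen marker genes, 11 in all, moved with HMG2 in W34/70 9.7: they summed to 225.7 to 234.5 CPM in minimal medium, 2568 to 2856 CPM on day 4 and 3076 to 5508 CPM on day 2. The sums in CBS1538 11.1 were 3467 to 4137, 3712 to 4447 and 3379 to 5292 CPM in the same order, and overlapped. COX5B, the low-oxygen form of a cytochrome c oxidase subunit, averaged 10.2, 265 and 216 CPM in W34/70 9.7 and 68.2, 98.3 and 103 CPM in CBS1538 11.1. HEM13, a haem synthesis enzyme induced when oxygen is scarce, averaged 106 ± 7.24, 663 ± 44.7 and 1043 ± 320 CPM in W34/70 9.7 and 1353 ± 345, 2511 ± 273 and 2564 ± 576 CPM in CBS1538 11.1. DAN4 was at 0 in all groups, TIR2, TIR4 and AAC3 were at 0 in CBS1538 11.1 in minimal medium and on day 4, and TIR2 on day 2. Of the 10 low-oxygen genes tested, 0 were higher and 9 lower in minimal medium against day 2 in W34/70 9.7 (32.8% and 32.1% of all genes). In CBS1538 11.1, 1 was higher and 1 lower (27.3% and 21.2% of all genes). ANB1, a translation factor gene induced without oxygen and hard to separate from its near-identical copy HYP2, averaged 677 ± 75.2 CPM in minimal medium, 372 ± 57.7 on day 4 and 405 ± 136 on day 2 in CBS1538 11.1, where its change against day 2 was not called (0.74, adjusted p = 0.0914). The part of oxygen supply in the HMG1 and HMG2 differences was not tested.

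**Figure D3:**
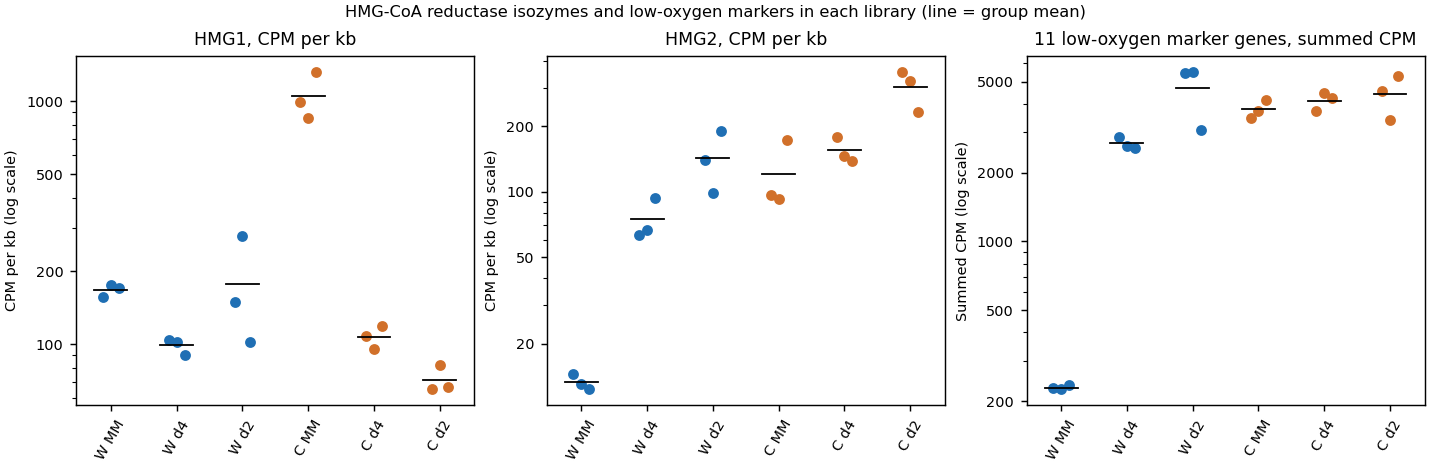
HMG1 and HMG2 in CPM per kb and the summed CPM of 11 low-oxygen marker genes, on log scales, in the 3 libraries of each group, with the group mean as a line. W34/70 9.7 in minimal medium is lowest for HMG2 and for the markers (225.7 to 234.5 CPM), whereas the markers of CBS1538 11.1 stay at 3379 CPM or above in every library.

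The 3 enzymes from mevalonate to isopentenyl diphosphate are mevalonate kinase (ERG12), phosphomevalonate kinase (ERG8) and mevalonate pyrophosphate decarboxylase (MVD1). ERG12 averaged 196 ± 13.3 CPM in minimal medium, 123 ± 8.97 on day 4 and 77.6 ± 22.9 on day 2 in W34/70 9.7, and 717 ± 56.1, 263 ± 61.5 and 89.7 ± 31.5 CPM in CBS1538 11.1 (SD, n = 3 each). It rose in all 3 comparisons within each strain, most in minimal medium against day 2, by 1.34 ± 0.24 in W34/70 9.7 and 3.00 ± 0.26 in CBS1538 11.1 on the log2 scale (adjusted p = 0.000138 and 1.34e-07). In W34/70 9.7 the rise on day 4 against day 2 (0.66 ± 0.24, adjusted p = 0.0384) was lost without any 1 of the 6 libraries except day 2 replicate 2, at 0.40 to 0.90. The rise in minimal medium against day 4 (0.67 ± 0.24, adjusted p = 0.0242) was lost without any 1 except day 4 replicate 2, at 0.57 to 0.69.

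ERG8 had 266, 304 and 292 CPM in minimal medium, 144, 158 and 149 CPM on day 4 and 103, 166 and 97.4 CPM on day 2 in W34/70 9.7. In CBS1538 11.1 it had 296, 208 and 194 CPM in minimal medium, 72.3, 75.6 and 106 CPM on day 4 and 34.8, 38.8 and 25.7 CPM on day 2. In both strains minimal medium stood clear of wort, and in CBS1538 11.1 day 4 also stood clear of day 2. The change in minimal medium against day 2 was 1.24 ± 0.23 in W34/70 9.7 and 2.82 ± 0.25 in CBS1538 11.1 (adjusted p = 0.00017 and 1.53e-07), and ERG8 rose on day 4 against day 2 in CBS1538 11.1 (1.36 ± 0.23, adjusted p = 0.00043).

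MVD1 was the gene of the branch that did not pass the test between the wort days in either strain, at -0.09 ± 0.24 in W34/70 9.7 and -0.29 ± 0.24 in CBS1538 11.1 (adjusted p = 0.79 and 0.406). It had 518, 523 and 600 CPM in minimal medium, 384, 347 and 393 CPM on day 4 and 326, 609.8 and 261 CPM on day 2 in W34/70 9.7. In CBS1538 11.1 the values were 1584, 1674 and 1886 CPM in minimal medium, 389, 415 and 524 CPM on day 4 and 596, 579 and 453 CPM on day 2. Minimal medium lay above both wort days in CBS1538 11.1, with changes of 1.66 ± 0.25 against day 2 and 1.95 against day 4 (adjusted p = 3.56e-05 and 7.35e-06). In W34/70 9.7 day 2 replicate 2 lay above the minimal medium libraries, and the changes of 0.45 against day 2 and 0.55 against day 4 were not called (adjusted p = 0.11 and 0.0664). Without that library the change against day 2 was 0.90 and was called (adjusted p = 0.000792).

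IDI1, the isomerase that makes dimethylallyl diphosphate, changed between the wort days by the largest amount in W34/70 9.7. It had 373, 409.8 and 409.8 CPM in minimal medium, 208, 455 and 356 CPM on day 4 and 101, 100.0 and 91.4 CPM on day 2 in that strain, against 326, 286 and 176 CPM, 75.0, 76.5 and 106 CPM, and 38.9, 38.3 and 41.4 CPM in CBS1538 11.1. Day 2 lay below every other library of its strain, and day 4 overlapped minimal medium in W34/70 9.7 but not in CBS1538 11.1. Day 4 exceeded day 2 by 1.80 ± 0.25 in W34/70 9.7 and 1.12 ± 0.25 in CBS1538 11.1 on the log2 scale (adjusted p = 0.000106 and 0.00318). The test of the difference between strains did not pass (0.68, adjusted p = 0.241). In minimal medium against day 4 IDI1 was at 0.23 in W34/70 9.7 (adjusted p = 0.454) and rose in CBS1538 11.1 (1.61, adjusted p = 5.48e-05).

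ERG20, farnesyl diphosphate synthase, rose in all 3 comparisons within each strain. It had 1021, 1211 and 1054 CPM in minimal medium, 411, 551 and 560 CPM on day 4 and 275, 295 and 227 CPM on day 2 in W34/70 9.7. In CBS1538 11.1 it had 1626, 1547 and 1309 CPM in minimal medium, 382, 378 and 420 CPM on day 4 and 158, 188 and 167 CPM on day 2. The conditions did not overlap in either strain, in the order minimal medium, day 4, day 2. The change in minimal medium against day 2 was 4.12-fold in W34/70 9.7 and 3.13 ± 0.18 on the log2 scale in CBS1538 11.1 (adjusted p = 5.21e-08 and 8.17e-09).

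ERG9, squalene synthase, commits farnesyl diphosphate to sterols. It averaged 640 ± 98.1 CPM in minimal medium, 731 ± 105 on day 4 and 554 ± 71.3 on day 2 in W34/70 9.7, where minimal medium overlapped both wort days and no comparison passed the test (adjusted p = 0.085 to 0.374). In CBS1538 11.1 it averaged 1191 ± 156, 939 ± 55.2 and 367 ± 47.7 CPM, and it rose in minimal medium against day 2 (1.70 ± 0.18, adjusted p = 1.3e-06) and on day 4 against day 2 (1.36 ± 0.18, adjusted p = 7.12e-05).

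The responses differed between the strains. The log2 change in minimal medium against day 2 was lower in W34/70 9.7 than in CBS1538 11.1 for 9 of the 10 genes by the test of that difference (16.4% of all genes lower, 12.4% higher), with IDI1 at -0.70 not called (adjusted p = 0.154). The largest difference was that of HMG1, at -3.96 ± 0.40 (adjusted p = 1.34e-06), followed by ERG13 at -2.50, ERG10 at -2.34 and HMG2 at -2.10. For HMG2, a lower value means a deeper fall in W34/70 9.7. The difference in minimal medium against day 4, which does not use the CBS1538 11.1 day 2 libraries, was called lower for 7 genes and higher for 0 (13.7% and 10.5% of all genes), HMG1 again being farthest at -2.53 (adjusted p = 0.000151). The call for ERG20 in that test (-0.81, adjusted p = 0.0193) was lost when any of 7 of the 12 libraries was left out, at -0.92 to -0.71. Between the wort days the difference was called lower for ERG10 (-1.09), HMG1 (-1.42), ERG8 (-1.06) and ERG9 (-0.96), 4 genes beside 5.35% of all genes, and higher for 0 (5.32%). Single libraries ended 3 of these calls: ERG8 without any of 9 libraries (-1.20 to -0.77), ERG9 without W34/70 9.7 day 4 replicate 2 (-0.91, adjusted p = 0.052), and HMG1 without CBS1538 11.1 day 4 replicate 1 (-1.45, adjusted p = 0.0514). Without the 2 W34/70 9.7 libraries that stood apart these 4 became -0.88, -0.97, -0.74 and -0.81, and none was called (adjusted p = 0.0529 to 0.136). With the same 2 libraries left out, the other counts of differences stayed at 9 and 7. Of all genes called in the strain differences, 81.5% in place of 49.9% were higher for the wort days with library totals, and 60.4% in place of 43% for minimal medium against day 2.

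In minimal medium itself, W34/70 9.7 had 8 genes lower and 1 higher than CBS1538 11.1 (28.4% and 41% of all genes), with a median difference of -1.65 beside 0.26 over all genes. HMG2, at -3.18, HMG1, at -2.65, and ERG10, at -2.36, were farthest apart (adjusted p = 3.96e-08, 3.07e-07 and 1.11e-08), and ERG8 did not pass, at 0.31 (adjusted p = 0.238). IDI1 was higher in W34/70 9.7 by 0.60 (adjusted p = 0.0389) and ERG20 was lower, at -0.45 (adjusted p = 0.0254). The IDI1 call was lost without any 1 of the 6 libraries except CBS1538 11.1 replicate 1 (0.38 to 0.77), and that of ERG20 without W34/70 9.7 replicate 1 or 3 or CBS1538 11.1 replicate 1 or 2 (-0.54 to -0.40). On day 4, 3 genes were lower and 2 higher in W34/70 9.7 (26.6% and 41.7% of all genes), IDI1 standing out at 1.99 (adjusted p = 2.74e-06) and ERG8 at 0.83 (adjusted p = 0.00384). On day 2, 1 was lower (2 without W34/70 9.7 day 2 replicate 2) and 6 were higher (23.4% and 38.5% of all genes), with ERG8 at 1.89, HMG1 at 1.30 and IDI1 at 1.30 higher and HMG2 at -1.08 lower (adjusted p = 2.58e-06, 0.000561, 0.000284 and 0.00228). ERG8 was counted on the 809 bp row alone in CBS1538 11.1 and mostly on the 1356 bp row in W34/70 9.7, so its differences between strains also carry row length. Per kb, ERG8 averaged 221 CPM in W34/70 9.7 and 288 in CBS1538 11.1 in minimal medium, without overlap. On day 4 it averaged 122 and 105 CPM per kb, with overlap, and on day 2 it averaged 96.7 and 40.9. The higher CPM of ERG8 and IDI1 in W34/70 9.7 came with counts on 2 copies there and on 1 in CBS1538 11.1. A fit of the rows apart, which has its own TMM factors, gave differences for the *S. eubayanus* copies alone. They were -1.28 for ERG8 on day 4, -0.76 for ERG8 and -0.35 for IDI1 on day 2, and -1.04 for IDI1 in minimal medium. IDI1 on day 4 was at 0.43 in that fit and not called (adjusted p = 0.128). On the CPM scale used here, that copy averaged 74.1 CPM in W34/70 9.7 and 85.8 CPM in CBS1538 11.1 on day 4, with overlap. The sign for the *S. eubayanus* copy of IDI1 on day 4 thus depended on the scaling. With copies summed, IDI1 on day 4 stayed at 1.68 to 2.21 when single libraries were left out.

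The strains use different sets of copies. W34/70 9.7 had counts on all 20 rows, whereas CBS1538 11.1 had 0 counts over its 9 libraries on the *S. cerevisiae* rows of HMG2, ERG12, ERG8, IDI1 and ERG9, which allows up to 3 counts of 101457198, or 0.0296 CPM. The *S. cerevisiae* rows of ERG10, ERG13 and HMG1 summed to 15, 22 and 4 counts there, beside 273939, 216975 and 139619 counts on their *S. eubayanus* rows. MVD1 and ERG20 were therefore the *S. cerevisiae* copies with counts in CBS1538 11.1, with 19452 and 15998 counts, and 12 copies were measured. How reads that match both sub-genomes were assigned is not given in the sources used here. Such limits cover counting error only.

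With the copies apart, 9 of 20 copies were higher and 2 lower in minimal medium than on day 2 in W34/70 9.7 (29.9% and 27.7% of all rows that averaged at least 1 CPM in either group), and 11 of the 12 measured copies were higher and 1 was lower in CBS1538 11.1 (22% and 22.8% of such rows). Both copies of HMG2 fell in W34/70 9.7, to 24.0 to 28.2 CPM for the *S. cerevisiae* copy and 14.6 to 16.9 CPM for the *S. eubayanus* copy in minimal medium, against 86.4 to 269.5 and 221 to 325 CPM on day 2 (log2 -2.88 ± 0.48 and -4.10 ± 0.29, adjusted p = 0.000664 and 6.83e-08). In minimal medium against day 4, the counts of called copies were 7 higher and 2 lower in W34/70 9.7 (21% and 23.4%) and 10 higher and 0 lower in CBS1538 11.1 (21.3% and 23.9%). The *S. cerevisiae* copy of HMG1 had 365 to 427 CPM in minimal medium and 151 to 181 CPM on day 4 in W34/70 9.7 and rose (1.19 ± 0.39, adjusted p = 0.0291), while the *S. eubayanus* copy had 130 to 137 and 137 to 154 CPM and was at -0.21 (adjusted p = 0.586). Between the wort days 5 copies were higher and 2 lower in W34/70 9.7 (16.6% and 12.9%), and 9 higher and 1 lower in CBS1538 11.1 (12.7% and 11.8%). A fit of the W34/70 9.7 libraries alone gave 4 higher and 3 lower copies between the wort days (18.3% and 15.1%). Standard errors of the *S. cerevisiae* copies of ERG10 and ERG13 were 0.60 and 0.51 in the joint fit and 0.21 and 0.28 in this fit. The *S. cerevisiae* copy of HMG1 was called only in this fit (adjusted p = 0.0573 jointly and 0.029 here). The *S. eubayanus* copy of ERG8 was called only in the joint fit (0.0349 and 0.0536). Calls of single copies thus depended on the fit.

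MVD1 is the gene whose copies had log2 differences of opposite sign between the wort days in both strains. In W34/70 9.7 the *S. cerevisiae* copy held 280.4 to 319 CPM on day 4 and 152 to 373 CPM on day 2, and the *S. eubayanus* copy 66.9 to 74.5 CPM and 109.8 to 237 CPM. In CBS1538 11.1 the *S. cerevisiae* copy held 124 to 184 CPM on day 4 and 55.7 to 75.9 CPM on day 2, while the *S. eubayanus* copy held 265 to 341 CPM and 377 to 539.9 CPM. The *S. eubayanus* libraries did not overlap between the days in either strain. In W34/70 9.7 the *S. eubayanus* copy fell (-1.10 ± 0.25, adjusted p = 0.00495) with the *S. cerevisiae* copy at 0.36 (adjusted p = 0.348), and in CBS1538 11.1 the *S. cerevisiae* copy rose (1.05 ± 0.27, adjusted p = 0.0168) with the *S. eubayanus* copy at -0.71 (adjusted p = 0.0617). The difference between copies was not tested. The share of MVD1 counts on the *S. eubayanus* copy was 18.9% to 19.4% on day 4 and 38.8% to 42.0% on day 2 in W34/70 9.7, and 65.0% to 69.1% and 83.2% to 90.7% in CBS1538 11.1.

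Other genes also shifted between copies in W34/70 9.7, where the median share over all genes with both copies was 33.4% in minimal medium, 30.9% on day 4 and 33.6% on day 2. ERG8 counts lay on the *S. eubayanus* row for 5.56% to 7.00% in minimal medium, 14.1% to 16.1% on day 4 and 9.15% to 11.7% on day 2, shares that the shorter row also lowers. For HMG1 the shares were 23.3% to 26.5%, 45.2% to 47.6% and 32.9% to 37.4%, so that day 4 was highest and minimal medium lowest. HMG2 had 37.5% to 38.4% in minimal medium, 51.7% to 72.9% on day 4 and 54.7% to 71.9% on day 2. Its highest shares, 72.9% and 71.9%, were those of day 4 replicate 1 and day 2 replicate 2, which stood apart. The other wort libraries were at 51.7% to 55.2%. ERG12 had 34.8% to 36.2%, 42.7% to 44.4% and 46.0% to 52.9%. The groups did not overlap for 8 of 10 genes in minimal medium against day 2 (50.2% of 4014 genes with both copies), for 6 in minimal medium against day 4 (45% of 4037) and for 5 on day 4 against day 2 (27.2% of 4022). Shares in minimal medium were higher for ERG13 and ERG9 against day 2 and for ERG13 and MVD1 against day 4. The others of these genes were lower. On day 4 against day 2, HMG1 and ERG8 were higher and ERG12, MVD1 and ERG20 lower. In CBS1538 11.1, ERG20 had 80.4% to 82.4% in minimal medium, 67.2% to 70.0% on day 4 and 71.0% to 84.8% on day 2. MVD1 and ERG20 were the genes of the branch with enough counts on both copies in that strain. Their groups did not overlap on day 4 against day 2 (39.2% of 1078 genes with both copies) or in minimal medium against day 4 (53.2% of 1156), and MVD1 alone did not overlap in minimal medium against day 2 (37.9% of 1152).

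**Figure D4:**
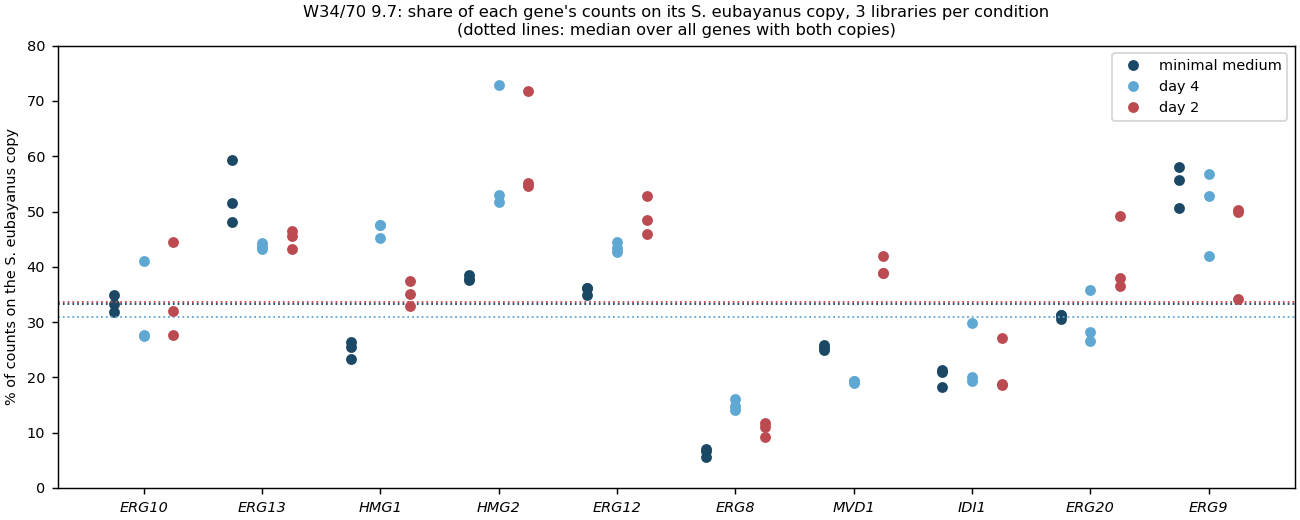
Percent of each gene's counts on its S. eubayanus copy in the 3 minimal medium, day 4 and day 2 libraries of W34/70 9.7, with the median over all genes with both copies as dotted lines. HMG1, HMG2, ERG12 and ERG8 have lower shares in minimal medium than in wort, ERG13 has higher shares, and MVD1 is near 19% on day 4.

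Levels of whole chromosomes differed between the wort replicates of W34/70 9.7, and some gene copies moved with their chromosome while others did not. Relative to the other 2 replicates, the median of *S. cerevisiae* chromosome XII was at -0.95 in replicate 1 of day 4 and -0.85 in replicate 2 of day 2 on the log2 scale, the 2 libraries low in *S. eubayanus* chromosome VII. The HMG2 copy on that chromosome was at -1.27 and -1.52 in the same libraries. The median of *S. cerevisiae* chromosome XVI was at -0.57 in the same day 4 library and 0.44 in replicate 2 of day 4, beside -1.28 and 1.03 for its IDI1 copy. The *S. eubayanus* copy of IDI1 was at -0.49 and 0.68 in these libraries, with its chromosome at 0.02 and 0.14. ERG20 had its *S. eubayanus* copy at 0.53 in day 2 replicate 2, with that chromosome at -0.40. In the minimal medium libraries of that strain no chromosome with a gene of the branch moved by more than 0.06. In day 2 replicate 2 the *S. cerevisiae* and *S. eubayanus* copies of HMG1 were at 1.08 and 1.07, with their chromosomes at 0.15 and 0.07. The part of these chromosome levels in the results was not tested. With the 2 libraries low in chromosome VII left out, IDI1 was at 2.08 and HMG2 at -1.04 on day 4 against day 2 (adjusted p = 8.61e-05 and 0.0127).

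**Figure D5:**
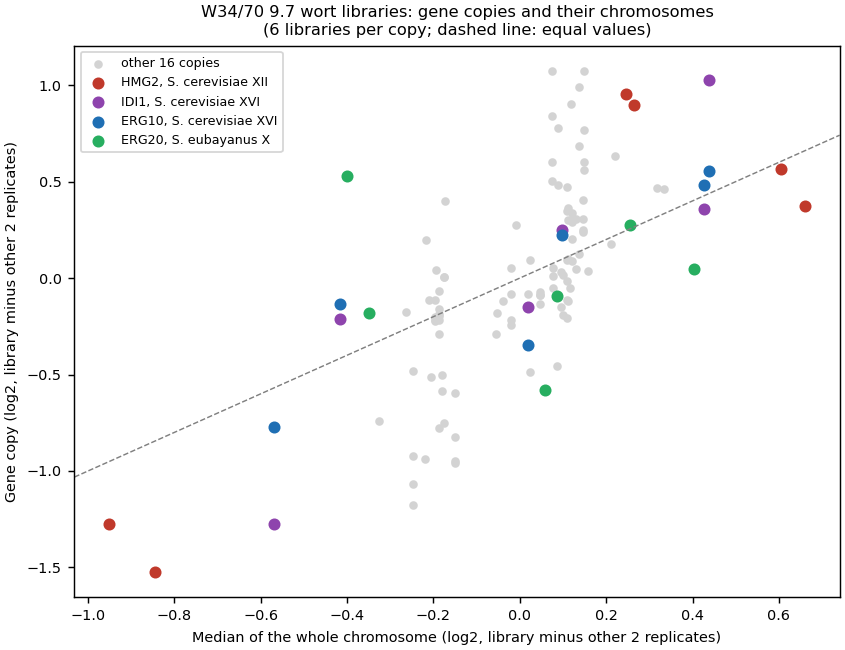
Level of each gene copy against the median of its chromosome in the 6 wort libraries of W34/70 9.7, both as log2 differences from the other 2 replicates of the group, with the dashed line marking equal values. The lowest chromosome values, -0.95 and -0.85, belong to S. cerevisiae chromosome XII, where the HMG2 copy is at -1.27 and -1.52.

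Most steps after squalene rose with the branch in CBS1538 11.1. Of 15 genes from squalene to ergosterol, 8 were higher and 3 lower in minimal medium than on day 2 in W34/70 9.7, and 14 higher and 0 lower in CBS1538 11.1 (medians 0.66 and 2.31). The shares of all genes called higher and lower were 32.8% and 32.1% in W34/70 9.7 and 27.3% and 21.2% in CBS1538 11.1. ERG7, lanosterol synthase, rose in both, by 1.21 in W34/70 9.7 and 1.92 in CBS1538 11.1. NCP1, the cytochrome P450 reductase, fell in W34/70 9.7 (-1.50), with 203 ± 35.9 CPM in minimal medium and 575 ± 98 CPM on day 2. On day 4 against day 2, 3 of the 15 were higher and 1 lower in W34/70 9.7, beside 20.7% and 17% of all genes, and 8 were higher and 0 lower in CBS1538 11.1, beside 17.2% and 14.6%.

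Upstream of ERG10, ALD6, the cytosolic acetaldehyde dehydrogenase that feeds acetyl-CoA synthesis, averaged 243 ± 29 CPM in minimal medium and 278 ± 78.8 CPM on day 2 in W34/70 9.7, beside 10950 ± 1290 and 149 ± 53.6 CPM in CBS1538 11.1 (log2 6.20 ± 0.42). ACS2, an acetyl-CoA synthetase, averaged 1145 ± 28.1 and 1298 ± 399 CPM in W34/70 9.7, and 5753 ± 1020 and 1190 ± 329 CPM in CBS1538 11.1. Of 8 genes of acetyl-CoA supply, 0 were higher and 4 lower in minimal medium than on day 2 in W34/70 9.7, among them ACS1 at -4.69 and ALD4 at -4.03, and 4 were higher and 1 lower in CBS1538 11.1, with the same shares of all genes.

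Genes that handle sterols or steer the branch were compared in minimal medium against day 2 as well, where 32.8% and 32.1% of all genes were higher and lower in W34/70 9.7 and 27.3% and 21.2% in CBS1538 11.1. Of 9 genes for sterol uptake and esters, 0 were higher and 7 lower in W34/70 9.7, and 3 higher and 3 lower in CBS1538 11.1. ARE2, a sterol acyltransferase, fell by 1.72 in W34/70 9.7 and rose by 2.79 in CBS1538 11.1, and PDR11, a sterol importer, fell in both (-3.35 and -4.28). Of 9 transcriptional regulators, 1 was higher and 6 lower in W34/70 9.7, and 3 higher and 3 lower in CBS1538 11.1. HAP1, the haem-responsive factor, fell in W34/70 9.7 (-2.30) and CBS1538 11.1 (-1.42), and so did UPC2, an activator of sterol genes (-1.27 and -2.41). Of 10 genes for the turnover of HMG-CoA reductase, 1 was higher and 5 lower in W34/70 9.7 and 5 higher and 3 lower in CBS1538 11.1, with NSG2, which binds the reductase, higher in both (1.55 and 2.20). Of 12 genes for other uses of prenyl diphosphates, 5 were higher and 2 lower in W34/70 9.7 and 3 higher and 1 lower in CBS1538 11.1, with medians of 0.42 and -0.10 beside -0.01 and 0.00 over all genes.

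The profile of the branch, taken as the median of its 10 genes on a log2(CPM + 1) scale centred over the 18 libraries, was followed most closely by ERG13 among its own genes, with a root mean square difference of 0.23, and least by HMG2, at 1.86. Among 4616 other genes with a mean of at least 10 CPM, the 5 nearest were TCB2 at 0.28, EFR3 at 0.34, ERG26 at 0.36, UBX6 at 0.37 and FRM2 at 0.37, beside a median of 1.06 over all of them.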

How the data were processed

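The data are 1 table of raw counts per annotated row, deposited by the authors for a reference that joins both sub-genomes and left without normalisation. STAR, SAMtools, featureCounts and DESeq2 are the tools named by the submitters' processing notes, with the *S. cerevisiae* build R64. Which assembly stood for *S. eubayanus*, the versions of the tools, whether counting used strand, and how reads that fit either sub-genome were placed are not given in the sources used. Reads of a gene and of an antisense gene that overlaps it may therefore be mixed, and the near-identical pair ANB1 and HYP2 is uncertain.

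Libraries were grouped by title into 6 groups of 3. Counts were summed over rows with the same gene name, and the rows were also tested apart. Tests were made in R 4.3.3 with edgeR 4.0.16: quasi-likelihood test, TMM factors, filterByExpr with a minimum count of 10 and a minimum total of 15, group means fitted to all 18 libraries at once, and Benjamini-Hochberg adjustment over the 6633 genes or 10894 rows tested. The procedure was also tested on simulated data. It gave 9 comparisons of groups and 3 of the change in one strain with that in the other. Shares of counts on a copy are described for genes with 20 counts or more in every library compared. A chromosome's level is the median of log2(CPM + 0.1) over its rows that average 5 CPM or more in a strain. Total counts of 5266324 to 19467656 left rows with few counts less precise. Replicates were compared for duplicates, and their chi-square per degree of freedom was at least 17.4.

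The genes and the related gene lists (113 symbols, 4 absent from the table) were chosen with earlier results of these data known. All 10 genes of the branch are named. From the other lists, names were taken from the 3 genes with the smallest p in the comparison described. The low-oxygen genes COX5B, HEM13 and ANB1, UPC2 in W34/70 9.7 and the genes at 0 were named after their values were seen. Same-numbered replicates deviated together only between day 4 and day 2 of CBS1538 11.1 (correlations 0.343, 0.115 and 0.261), on the evidence of the counts alone. The changes and calls given for that comparison are from the fit without pairs, and pairs were used only in alternative fits. Alternatives were DESeq2 1.42.0, other scalings, no filter, a replicate block, single libraries left out, the 2 libraries that stood apart left out, the CBS1538 11.1 day 2 libraries left out, and single copies. Of these, 3 were chosen after seeing the data: the block fitted to the 2 wort days alone, the fit of W34/70 9.7 alone with copies apart, and the low-oxygen list without HYP2, an aerobic form listed by mistake. Promoter sequences were not analysed here.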

Additional observations from a re-analysis of the deposited data

Results flagged for a closer look

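The changes that differed between the strains by their own test are given here as W34/70 9.7 minus CBS1538 11.1 on the log2 scale (edgeR, adjusted p under 0.05). For minimal medium against day 2, the differences were -2.34 for ERG10, -2.5 for ERG13, -3.96 for HMG1, -2.1 for HMG2, -1.66 for ERG12, -1.58 for ERG8, -1.21 for MVD1, -1.08 for ERG20 and -1.49 for ERG9. For minimal medium against day 4, they were -1.25 for ERG10, -1.84 for ERG13, -2.53 for HMG1, -2.13 for HMG2, -1.41 for MVD1, -1.39 for IDI1 and -0.81 for ERG20. Except for HMG2, these genes were called higher in CBS1538 11.1 in the same comparison. In W34/70 9.7 the changes of HMG1, MVD1 and ERG9 against day 2, and of ERG13, MVD1 and IDI1 against day 4, were not called, and HMG2 fell in both. For day 4 against day 2, they were -1.09 for ERG10, -1.42 for HMG1, -1.06 for ERG8 and -0.96 for ERG9, and these 4 were lost without the 2 W34/70 9.7 libraries low in *S. eubayanus* chromosome VII and with scaling by library totals. The sets against day 2 use the CBS1538 11.1 day 2 libraries, whose strain field reads parental, and the set against day 4 does not.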

How the results depend on the processing

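Of 1388 values of the 85 called gene changes under the alternatives, 1274 kept their direction and call, 108 kept the direction without the call and 6 reversed, all with the *S. eubayanus* copies alone. Those were HMG1 (-0.21) and ERG8 (-0.36) in W34/70 9.7 in minimal medium against day 4, and, between W34/70 9.7 and CBS1538 11.1, IDI1 in minimal medium (-1.04), ERG8 on day 4 (-1.28) and ERG8 (-0.76) and IDI1 (-0.35) on day 2. The fit of rows apart has its own TMM factors, so its differences between strains are on another scale than those with copies summed. For IDI1 and ERG8 they also set a part of the W34/70 9.7 counts against all those of CBS1538 11.1, which had none on the *S. cerevisiae* rows. Where counts of called genes moved by over 1.5 times, the cause was not tested beyond the smaller sets of libraries or copies used. With library totals, W34/70 9.7 had 6 genes higher and 0 lower on day 4 against day 2 and 3 higher in minimal medium against day 4, 0 strain differences lower between the wort days, and levels per kb summed over the branch of 5318 in minimal medium and 4033 on day 4, against 4894 and 3469. Library totals moved the median of all genes by 0.32 and 0.29 for the strain differences in day 4 and in minimal medium against day 2, and by 0.15, 0.18 and -0.13 between strains in minimal medium, on day 4 and on day 2. Fitting only the groups compared left 1 gene lower on day 4 against day 2 in W34/70 9.7 and 2 strain differences lower. Without the 2 libraries that stood apart, the counts lower were 1 on day 4 against day 2 in W34/70 9.7, 2 between strains on day 2 and 0 for the strain difference between wort days. Without the CBS1538 11.1 day 2 libraries, 0 genes were called higher in W34/70 9.7 than in CBS1538 11.1 in minimal medium. The *S. eubayanus* copies alone gave 3 genes higher in W34/70 9.7 in minimal medium against day 4, 0 higher in W34/70 9.7 than in CBS1538 11.1 in minimal medium, 0 higher and 6 lower on day 4 and 0 higher and 5 lower on day 2, and 0 strain differences lower between wort days. The *S. cerevisiae* copies alone gave 0 lower on day 4 against day 2 in W34/70 9.7.

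With the replicate block over all libraries, 0 genes were higher in W34/70 9.7 than in CBS1538 11.1 in minimal medium (IDI1 0.60, adjusted p = 0.0522), and ERG8 was lost from the strain differences between wort days (-1.06, adjusted p = 0.0605). The block changed no other call of a gene that had passed. In day 4 against day 2 of CBS1538 11.1, the pairing in a fit of those days alone gave 8 higher and 1 lower. In the other comparisons samples share only a number.

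Leaving out 1 library at a time, the counts were 2 to 5 higher and 1 to 2 lower on day 4 against day 2, 4 to 7 higher in minimal medium against day 2 and 2 to 4 higher in minimal medium against day 4 in W34/70 9.7, and 0 to 1 lower in minimal medium against day 4 in CBS1538 11.1. Between strains they were 0 to 1 higher and 7 to 8 lower in minimal medium, 2 to 3 higher and 3 to 4 lower on day 4 and 1 to 2 lower on day 2. Strain differences lower numbered 2 to 5 between wort days and 6 to 7 in minimal medium against day 4. ERG10 in minimal medium against day 4 in W34/70 9.7 was lost without minimal medium replicate 2 or day 4 replicate 1 (0.42 to 0.60). All calls in CBS1538 11.1 and all strain differences in minimal medium against day 2 were kept.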
